A study of Mus musculus with 6 samples.

Results

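The heart under 2 weeks of pressure overload was compared with the heart after sham surgery, gene by gene. The comparison used 4 of the 6 libraries of the series: 2 from wild-type (WT) mice after transverse aortic constriction (TAC), an operation that narrows the aorta and loads the left ventricle, and 2 from WT mice after sham surgery. The other 2 libraries came from mice labelled Snai1 knockdown that had also received TAC, and they entered the fit to help estimate the spread between libraries. All samples carried the labels heart and 2 weeks; sex, age and strain were not given in the labels used here. The comparison covered all 14447 genes with enough reads, of 19320 in the table. No label states whether the paired libraries of a condition were taken from different animals. The p-values below therefore reflect how far these libraries differed, whether for technical or animal-to-animal reasons.

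Pressure overload is known to enlarge heart muscle cells, to bring back genes of the fetal heart such as those for natriuretic peptides and skeletal actin, and to shift fuel use away from fatty acids. It is also known to make fibroblasts lay down collagen and elastic fibres, and to draw monocytes from the blood, which join the macrophages that live in the heart. Immediate early genes and heat shock genes, by contrast, respond within minutes to hours to load, hormones, temperature and handling of the tissue.

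The 2 deposited columns of a group were 60:40 and 40:60 mixtures of 2 libraries and were resolved into whole read counts, given below in CPM (counts scaled to a common library total). In each pair of values, replicate 1 precedes replicate 2. The resolved libraries held 18094371 and 17221296 reads in TAC and 14835962 and 17411291 reads in sham, so that 3 reads made between 0.164 and 0.202 CPM over the 6 libraries. The defining genes of heart muscle were abundant, as the tissue label implies: Myh6, the adult cardiac myosin heavy chain, had 51262 and 48704 CPM in the TAC libraries, against 47646 and 46592 CPM in the sham libraries, and Tnnt2, cardiac troponin T, had 12078 and 12176 CPM in TAC, against 13250.4 and 13178 CPM in sham. Myh4, a fast skeletal muscle myosin, stood at 0.276 and 0.465 CPM in TAC and 0.337 and 0.459 CPM in sham. Snai1 itself, the gene named in the knockdown label, had 4.48 and 4.24 CPM in TAC and 5.12 and 3.45 CPM in sham. The extraction protocol speaks of cultured cells beside heart tissue without saying which sample was which.

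Between the TAC and sham libraries, limma (Benjamini-Hochberg adjusted p below 0.05 over all genes tested) called 12 genes higher, which is 0.0831% of those tested, and 11 lower, which is 0.0761%. The genes that rose were Mpeg1, Fbn1, Clec4n, Bdh1, Ms4a4a, Ms4a7, Lgals3, Abca1, Slc8a1, Ednra, Ccl8 and Tmem267. The genes that fell were Nr4a1, Nrgn, Ppbp, Nr4a3, Camk2b, Lrrc10, Itga2b, Myh7b, Prickle3, Sfpq and Gm12912. All but Gm12912, a processed pseudogene, code for proteins. At an unadjusted p below 0.05, 5.86% of genes were higher and 3.72% lower. Without any test, both TAC libraries lay above both sham libraries for 23.7% of genes (3428) and below them for 16.4% (2370). That split depended on the scaling: with median ratio size factors it was 2849 above and 2874 below, and 12 genes were called higher and 17 lower.

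**Figure D1:**
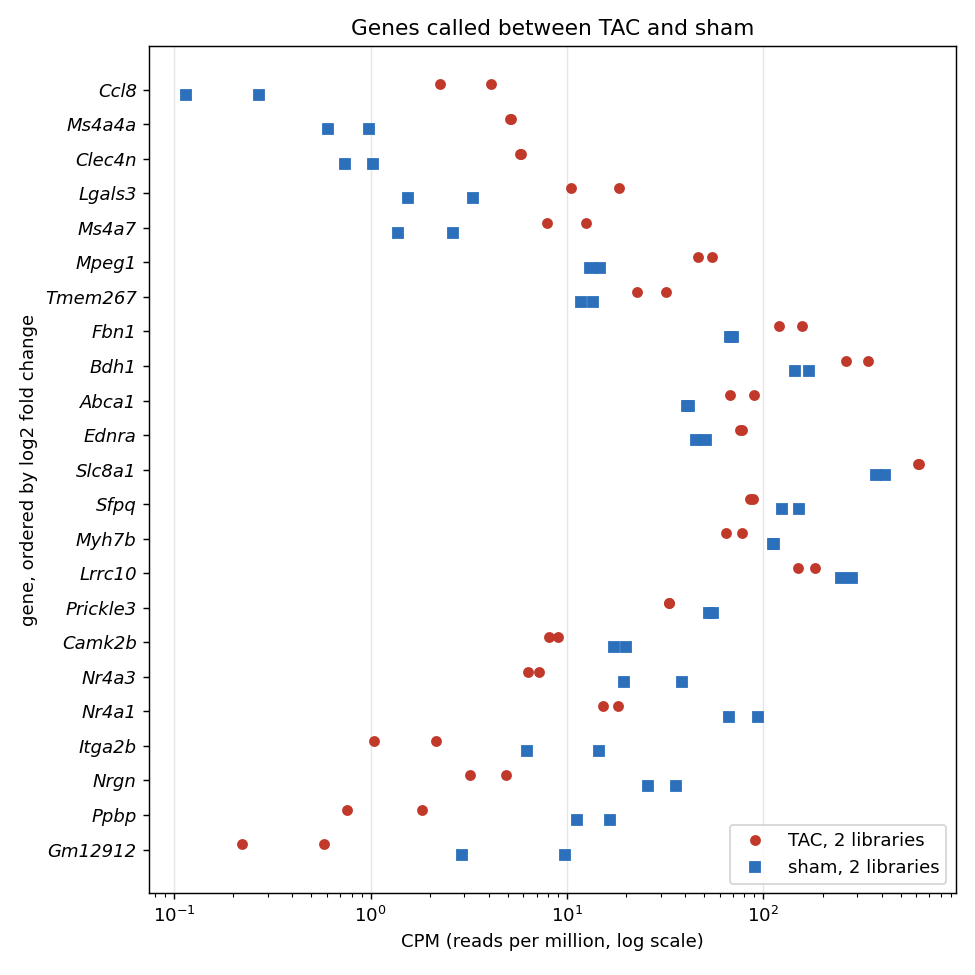
CPM on a log axis of the 23 called genes in each TAC library (red, upper in each row) and each sham library (blue, lower in each row), with 1 point per library and no error bar. In every row the TAC points lie on 1 side of both sham points; the largest fitted fold changes are those of Ccl8 and Gm12912, whose lower group held between 2 and 10 reads per library.

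Most genes differed little. The median log2 fold change (TAC minus sham, so positive values are higher in TAC) was 0.04 over all genes, with an SD of 0.48, and the values for 5% and 95% of genes were -0.60 and 0.67. A difference of more than 1 on the log2 scale was seen in 343 genes upwards and 304 downwards, of which 243 and 229 had groups that did not overlap. Among 5236 well-covered genes (mean of 500 reads or more), log2 TAC replicate 2 minus TAC replicate 1 had an SD of 0.21, and log2 sham replicate 2 minus sham replicate 1 had an SD of 0.22. The log2 fold changes of these genes had an SD of 0.20, where the differences within groups alone would give 0.15.

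**Figure D2:**
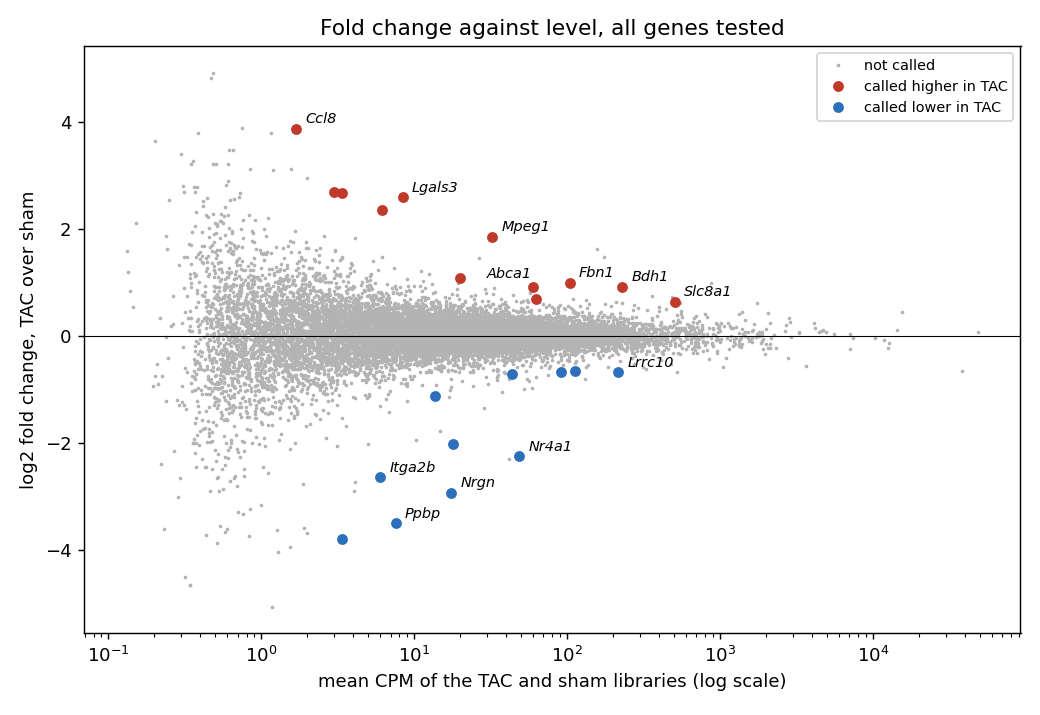
Log2 fold change (TAC minus sham) against mean CPM on a log axis for the 14447 genes tested, with the called genes coloured and 12 of them named. The 12 genes called higher and 11 called lower are spread over low and high levels, and most of the other genes lie between -0.60 and 0.67.

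Few of these calls held whichever library was left out. With TAC replicate 2 left out, Nr4a1, Nrgn and Abca1 kept their calls, and the other 20 had adjusted p between 0.0678 (Mpeg1) and 0.465 (Tmem267) by limma. With sham replicate 2 left out, 7 kept their calls (Clec4n, Fbn1, Mpeg1, Ms4a4a, Nr4a1, Nrgn and Sfpq), and the other 16 had adjusted p between 0.0622 and 0.258. Without sham replicate 1, 15 kept their calls and the other 8 had adjusted p between 0.0522 and 0.307; without TAC replicate 1, 13 kept theirs and 10 had adjusted p between 0.0537 and 0.172. Leaving out a knockdown library, which changes only the estimate of spread, ended 10 and 9 calls, at adjusted p of at most 0.0825. Nr4a1 and Nrgn alone passed in all 6 of these fits. Camk2b, Ednra, Gm12912, Myh7b and Prickle3 passed in none. All 23 kept their sign in each, which was fixed beforehand, because the TAC and sham values of each called gene did not overlap.

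Several of the genes that rose are known from macrophages, but no gene list held more than 2 of them. The lists with 2 were the MS4A family and the phagolysosome, the compartment in which engulfed material is digested. Mpeg1, which encodes perforin-2, a pore-forming protein of phagocytes, had 46.6 and 54.9 CPM in the TAC libraries, against 14.8 and 13.2 CPM in the sham libraries. Both TAC libraries were more than 3 times as high as either sham library, and the difference was 3.63-fold (log2 1.86 ± 0.21, standard error of the limma fit, adjusted p = 0.00193). In these bulk samples more macrophages and more RNA per macrophage cannot be told apart, and the same holds for each cell type below.

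Lgals3 encodes galectin-3, a sugar-binding protein that macrophages release and that marks those clearing lipid and debris. It had 10.4 and 18.4 CPM in the TAC libraries, against 3.303 and 1.55 CPM in the sham libraries, a log2 difference of 2.60 ± 0.41 (limma, adjusted p = 0.0235). The libraries within each group differed, with TAC replicate 2 and sham replicate 1 the higher of their pairs, and the groups did not overlap. Without TAC replicate 2 the adjusted p of Lgals3 was 0.331, and without sham replicate 2 it was 0.123.

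The MS4A family of membrane proteins lies in a cluster on chromosome 19, and 2 of its 7 tested members rose. Ms4a7, expressed by tissue macrophages, had 7.903 and 12.5 CPM in the TAC libraries, against 2.63 and 1.38 CPM in the sham libraries (log2 2.37 ± 0.37, limma, adjusted p = 0.0235). Ms4a4a, a marker of alternatively activated macrophages in humans, had 5.14 and 5.17 CPM in the TAC libraries, against 0.607 and 0.976 CPM in the sham libraries, from 9 and 17 reads in sham (log2 2.69 ± 0.39, limma, adjusted p = 0.00935). The Ms4a4a values of the TAC libraries were almost equal. On GRCm38, in the GENCODE vM21 annotation, Ms4a7 spans positions 11321039 to 11336146 and Ms4a4a 11375523 to 11392790 of that chromosome. Clec4n, which encodes dectin-2, a C-type lectin receptor for fungal sugars on myeloid cells, had 5.86 and 5.75 CPM in the TAC libraries, against 0.741 and 1.03 CPM in the sham libraries, from 11 and 18 reads in sham (log2 2.68 ± 0.36, limma, adjusted p = 0.00686). It was the only member called of 16 in the list of C-type lectins and Fc receptors.

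The other macrophage genes differed by smaller amounts. Of 24 phagolysosome genes, Mpeg1 and Lgals3 rose, none fell, and both TAC libraries lay above both sham libraries for 15 (62.5%, against 23.7% of all genes) and below for 0. The median of this list was 0.24, against 0.04 over all genes, and stayed between 0.18 and 0.30 when a library was left out. Cd68, a heavily glycosylated protein of macrophage lysosomes, had 34.9 and 41.7 CPM in the TAC libraries, against 20.4 and 9.42 CPM in the sham libraries (log2 1.46 ± 0.28, limma, adjusted p = 0.0552). Sham replicate 1 held more than 2 times the Cd68 of sham replicate 2. The cysteine protease gene Ctss had 30.8 and 44.8 CPM in TAC, against 23.2 and 19.3 CPM in sham (log2 0.81 ± 0.23), and Ctsz had 30.7 and 43.9 CPM in TAC, against 24.6 and 25.6 CPM in sham (log2 0.55 ± 0.17). The broadly expressed protease gene Ctsb had 722 and 818 CPM in TAC and 739 and 703 CPM in sham, with the groups overlapping. Grn, which encodes progranulin, had 139 and 153 CPM in TAC, against 114 and 109.9 CPM in sham (log2 0.38 ± 0.11).

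General macrophage markers had a median of 0.35 over 20 genes, and 0.23 without TAC replicate 2. Of these, 0 were called, 12 lay above (60%, against 23.7% of all genes) and 1 below (5%, against 16.4%). Csf1r, the receptor that macrophages need to survive, had 49.1 and 50.8 CPM in TAC, against 41.9 and 43.8 CPM in sham (log2 0.22 ± 0.13), and Adgre1, a receptor gene that marks mature mouse macrophages, had 10.8 and 15.5 CPM in TAC, against 11.7 and 10.1 CPM in sham, with overlapping groups. Trem2, a lipid-sensing receptor of macrophages, had 3.59 and 5.57 CPM in TAC, against 1.21 and 1.72 CPM in sham (log2 1.61 ± 0.45, limma, adjusted p = 0.216). Markers of resident heart macrophages were split. Of 14, 6 lay above (42.9%, against 23.7% of all genes) and 3 below (21.4%, against 16.4%), with a median of 0.14. The scavenger receptor genes Stab1 (log2 0.57 ± 0.13) and Cd163 (log2 0.62 ± 0.17) lay above sham in both TAC libraries. Lyve1, a hyaluronan receptor gene that lymphatic endothelium also expresses, lay below, at 13.3 and 20.03 CPM in TAC and 21.1 and 29.1 CPM in sham (log2 -0.60 ± 0.21). Of 12 markers of monocytes and recruited macrophages, 1 lay above (8.33%, against 23.7%) and 2 below (16.7%, near 16.4%). Their median of 0.03 was -0.25 without TAC replicate 2. Ccr2, the receptor that brings monocytes out of the marrow, had 1.44 and 4.82 CPM in TAC and 2.696 and 3.33 CPM in sham. None of the genes in these lists other than those named as called passed the test.

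Complement genes, many of which macrophages and fibroblasts express, had a median of 0.35 over 17 members, with 0 called. Of these, 9 lay above (52.9%, against 23.7% of all genes) and 3 below (17.6%, near 16.4%). Without TAC replicate 2 the complement median was 0.20. C3ar1, the receptor for the C3a fragment, had 10.2 and 13.9 CPM in TAC, against 6.47 and 6.03 CPM in sham (log2 0.93 ± 0.23). C4b, a component of the classical pathway, had 40.1 and 49.6 CPM in TAC, against 32.8 and 26.5 CPM in sham (log2 0.60 ± 0.16), and C1qa, a subunit of its first component, had 52.6 and 62.9 CPM in TAC, against 45.4 and 42.1 CPM in sham (log2 0.40 ± 0.16). The values of all 3 genes were separated between the groups, with adjusted p of 0.167, 0.177 and 0.417 by limma.

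Among genes for the export of cholesterol from cells there was 1 call. Abca1, the transporter that loads cholesterol onto apolipoprotein A-I, had 90.03 and 67.6 CPM in the TAC libraries, against 41.7 and 40.7 CPM in the sham libraries (log2 0.92 ± 0.15, limma, adjusted p = 0.0285). TAC replicate 1 was the higher TAC library, and the sham values were almost equal. Its adjusted p was 0.125 without TAC replicate 1, 0.118 when sham replicate 2 was left out and 0.0522 when sham replicate 1 was. Of 13 genes in the list of cholesterol efflux and targets of the liver X receptors (LXR, nuclear receptors for oxidised cholesterol), Abca1 alone rose. Of the 13, 8 lay above (61.5%, against 23.7% of all genes) and 1 below (7.69%, against 16.4%), with a median of 0.24. This median was 0.09 without sham replicate 1.

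Pltp, a phospholipid transfer protein and LXR target, had 30.4 and 32.8 CPM in TAC, against 17.5 and 19.8 CPM in sham (log2 0.76 ± 0.16, limma, adjusted p = 0.076). Apoe, the lipid carrier that macrophages secrete, had 561 and 641 CPM in TAC, against 349 and 376 CPM in sham (log2 0.73 ± 0.17). Srebf1, the regulator of fatty acid synthesis that LXR induces, had 40.7 and 38.03 CPM in TAC, against 27.4 and 24.3 CPM in sham (log2 0.61 ± 0.14). Abcg1, the second main cholesterol exporter of macrophages, had 12.3 and 13.5 CPM in TAC, against 10.9 and 9.02 CPM in sham (log2 0.38 ± 0.21). The receptor gene Nr1h3, LXR alpha, had 21.996 and 21.7 CPM in TAC and 19.3 and 20.8 CPM in sham. The member below sham was Scarb1, the high-density lipoprotein receptor, at 34.8 and 34.1 CPM in TAC and 47.05 and 44.5 CPM in sham. The phagolysosome, general, lipid-associated, resident and recruited macrophage lists had medians of 0.24, 0.35, 0.19, 0.14 and 0.03, and the part of macrophages in these lipid genes was not tested.

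Chemokine genes pointed in different directions. Ccl8, an attractant of monocytes, rose, with 41 and 71 reads in the TAC libraries, against 4 and 2 reads in the sham libraries (log2 3.89 ± 0.68, limma, adjusted p = 0.0447). At 2 and 4 reads in sham the size of this fold change depends on the reads added before the log, and without TAC replicate 2 the adjusted p was 0.451. Cxcl9, an attractant of T cells induced by interferon gamma, stood lower, at 3.87 and 3.54 CPM in TAC and 10.8 and 9.07 CPM in sham (log2 -1.41 ± 0.27, limma, adjusted p = 0.0552). Ccl2, the main ligand of Ccr2, had 1.49 and 2.903 CPM in TAC and 1.21 and 1.95 CPM in sham. The median over 17 chemokine genes was 0.17, and -0.12 without TAC replicate 2.

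The list with the most genes called lower was that of platelets, with 3. Of 16 tested genes of platelets and their precursor, the megakaryocyte, Nrgn, Ppbp and Itga2b fell and none rose. In both TAC libraries 15 lay below sham (93.8%, against 16.4% of all genes) and 0 above (against 23.7%). The median of the list was -2.32, against 0.04 over all genes, and ran from -3.06 without sham replicate 1 to -1.57 without sham replicate 2. Ppbp, the precursor of several chemokines stored in platelet granules, had 1.82 and 0.755 CPM in the TAC libraries, against 11.3 and 16.5 CPM in the sham libraries (log2 -3.50 ± 0.47, limma, adjusted p = 0.00686). Itga2b, the integrin subunit that binds fibrinogen, had 2.16 and 1.05 CPM in the TAC libraries, against 6.27 and 14.5 CPM in the sham libraries (log2 -2.64 ± 0.47, limma, adjusted p = 0.0447). Sham replicate 2 held more than 2 times the Itga2b of sham replicate 1, and the adjusted p was 0.258 when sham replicate 2 was left out and 0.365 when TAC replicate 2 was.

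Nrgn, which encodes neurogranin, a calmodulin-binding protein of neurons that platelets also carry, had 4.92 and 3.19 CPM in the TAC libraries, against 25.7 and 35.9 CPM in the sham libraries (log2 -2.93 ± 0.27, limma, adjusted p = 0.00022). Its call held in each fit without 1 library, with adjusted p up to 0.0175. The knockdown libraries, which also had TAC, stood at 5.05 and 4.0005 CPM. Tubb1, the platelet tubulin, had 0.663 and 1.16 CPM in TAC, against 4.79 and 9.42 CPM in sham (log2 -2.90 ± 0.58, limma, adjusted p = 0.0602). Gp9, a subunit of the von Willebrand factor receptor, had 2 and 10 reads in the TAC libraries, against 50 and 62 reads in the sham libraries. Treml1, a receptor of platelet granules, had 2 and 4 reads in the TAC libraries, against 28 and 50 reads in the sham libraries. For Gp9 and Treml1 the TAC libraries held few reads and the sham libraries several times more.

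Other members of the platelet list differed less. Pf4, platelet factor 4, lies beside Ppbp on chromosome 5 and had 5.91 and 6.16 CPM in TAC, against 9.98 and 12.8 CPM in sham (log2 -0.90 ± 0.23, limma, adjusted p = 0.177). Gp1ba, another subunit of the von Willebrand factor receptor, had 2.82 and 2.38 CPM in TAC, against 3.44 and 3.62 CPM in sham (log2 -0.44 ± 0.38). Thbs1 and Itgb3, which other cells of the heart express too, had log2 fold changes of -0.97 ± 0.20 and -0.75 ± 0.31. The summed level of the list was 76.7 and 107 CPM in TAC, against 198 and 229.9 CPM in sham. Thbs1 made up a large part of the sum in each of these libraries. Alox5, which makes leukotrienes, and Alox12, which makes a related lipid in platelets, had 13.04 and 8.25 CPM in TAC and 22.98 and 22.9 CPM in sham and 9.17 and 10.2 CPM in TAC and 13.5 and 16.8 CPM in sham.

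Genes of other blood cells varied with single libraries. The 11 erythroid genes with values, globins among them, summed to 913 and 841 CPM in TAC, against 1822 and 950.1 CPM in sham. Of these, 7 were tested, with 0 called and a median of -0.57 that was -0.16 without sham replicate 1. The 18 T and B lymphocyte genes with values summed to 16.2 and 16.4 CPM in TAC, against 51.4 and 14.99 CPM in sham. The median of the 10 that were tested was -0.61, and 0.28 without sham replicate 1. In both lists the sum of sham replicate 1 was the highest among the TAC and sham libraries. The part of blood content in the platelet result was not tested.

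Immediate early genes, which are switched on within minutes of a stimulus and encode short-lived regulators, were the next group among the lower genes. Nr4a1, an orphan nuclear receptor of this class, had 18.2 and 15.2 CPM in the TAC libraries, against 66.9 and 93.9 CPM in the sham libraries. It averaged 16.7 ± 2.14 CPM in TAC and 80.4 ± 19.1 CPM in sham (SD, n = 2 each), 4.75-fold lower in TAC (log2 -2.25 ± 0.20, limma, adjusted p = 0.000212), and passed in every fit without 1 library. Nr4a3, a second member of the family, had 6.36 and 7.2004 CPM in the TAC libraries, against 19.6 and 38.3 CPM in the sham libraries (log2 -2.01 ± 0.28, limma, adjusted p = 0.00848). Sham replicate 2 was the highest library for both, and without it the adjusted p of Nr4a3 was 0.0991. Nr4a2, the remaining member, had 2.87 and 2.55 CPM in TAC, against 4.45 and 5.57 CPM in sham (log2 -0.87 ± 0.37). In the knockdown libraries, which also had TAC, Nr4a1 stood at 38.7 and 26.2 CPM and Nr4a3 at 6.88 and 5.096 CPM.

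Of 32 immediate early genes tested, Nr4a1 and Nr4a3 fell and none rose, with 2 above and 12 below sham (37.5% below, against 16.4% of all genes) and a median of -0.27. This median was -0.13 without sham replicate 2 and -0.16 without TAC replicate 2. Atf3, a stress-induced repressor, had 5.58 and 2.67 CPM in TAC, against 9.504 and 23.5 CPM in sham (log2 -1.95 ± 0.40, limma, adjusted p = 0.0685). Sham replicate 2 was by far the highest library for Atf3. Myc had 2.49 and 4.06 CPM in TAC, against 6.07 and 7.47 CPM in sham (log2 -1.08 ± 0.34), and the kinase gene Sik1 had 65.9 and 44.9 CPM in TAC, against 65.4 and 125 CPM in sham (log2 -0.74 ± 0.25). Among the best known members of the class, Fos lay below sham in both TAC libraries, at 1.55 and 1.22 CPM in TAC and 2.22 and 2.297 CPM in sham. The groups overlapped for Junb, with 14.9 and 15.8 CPM in TAC and 15.03 and 15.2 CPM in sham. They also overlapped for Egr1, with 11.1 and 21.3 CPM in TAC and 16.7 and 16.1 CPM in sham. Rgs2, an inhibitor of G protein signalling, lay above sham, at 43.6 and 43.03 CPM in TAC and 27.5 and 31.5 CPM in sham (log2 0.56 ± 0.14). Nr4a1 and Nr4a3 also account for both calls in the list of cyclic AMP and CREB targets. Of its 19 genes, 4 lay above (21.1%, near the 23.7% of all genes) and 10 below (52.6%, against 16.4%). The median was -0.22, and -0.11 without sham replicate 1.

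**Figure D3:**
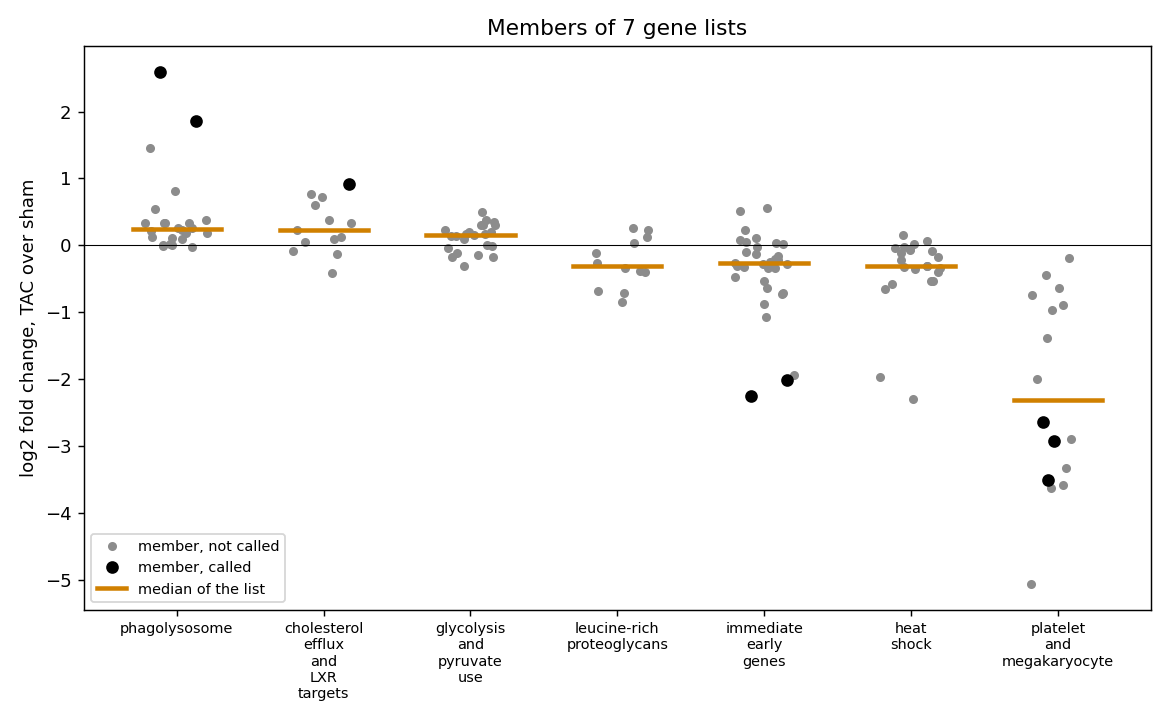
Log2 fold change (TAC minus sham) of every tested member of selected gene lists, with 1 grey point per uncalled gene, called genes in black and the list median as an orange bar. Platelet genes lie lowest, with a median of -2.32, and heat shock and immediate early genes have medians of -0.31 and -0.27, while phagolysosome and cholesterol efflux genes lie mostly above 0, both with a median of 0.24.

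Heat shock genes encode chaperones that refold damaged proteins and are induced together through the heat shock element, a repeat bound by the factor Hsf1. Of 23 tested, 0 were called, 1 lay above (4.35%, against 23.7% of all genes) and 13 below sham (56.5%, against 16.4%). The median was -0.31, between -0.37 and -0.21 when 1 library was left out. The inducible Hsp70 genes had the widest differences. Hspa1b had 19.7 and 8.304 CPM in the TAC libraries, against 39.3 and 100.5 CPM in the sham libraries (log2 -2.29 ± 0.45, limma, adjusted p = 0.0552), and Hspa1a, a near-identical copy whose reads may not be separable, had 8.46 and 5.17 CPM in TAC, against 16.04 and 41.8 CPM in sham (log2 -1.97 ± 0.60). Sham replicate 2 was the highest library for both, at more than 2 times sham replicate 1. Hspa8, the constitutive Hsp70 of the cytosol, had 872 and 794 CPM in TAC, against 1139 and 1367 CPM in sham (log2 -0.58 ± 0.12, limma, adjusted p = 0.0602).

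Cochaperone genes had smaller differences. Dnajb5 had 107 and 117 CPM in TAC, against 153 and 173 CPM in sham (log2 -0.53 ± 0.11, limma, adjusted p = 0.069). Hsph1, a nucleotide exchange factor for Hsp70, had 68.8 and 64.2 CPM in TAC, against 85.2 and 128 CPM in sham (log2 -0.65 ± 0.17), and Chordc1, a cochaperone of Hsp90, had 42.3 and 40.8 CPM in TAC, against 53.7 and 67.9 CPM in sham (log2 -0.54 ± 0.14). Hsp90ab1, the constitutive cytosolic Hsp90, had 1845 and 1652 CPM in TAC, against 2073 and 2320.2 CPM in sham (log2 -0.33 ± 0.12). The mitochondrial chaperonin gene Hspd1 had 288 and 285 CPM in TAC and 276 and 288 CPM in sham, and Hsf1 itself had 44.7 and 46.8 CPM in TAC and 51.1 and 43.1 CPM in sham, with overlapping groups in both. Hspa5, the chaperone of the endoplasmic reticulum, had 523 and 560.4 CPM in TAC and 485 and 487 CPM in sham (log2 0.16 ± 0.10). Genes of the unfolded protein response had a median of -0.06 over 20 members, and those of the proteasome -0.02 over 30.

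The promoters of Hsph1 and Chordc1 are shown because both genes lay below sham in both TAC libraries and both windows hold a full heat shock element. The windows run from 250 bases before to 50 after a RefSeq transcript start on GRCm38.p6, and capitals mark matches to GAANNTTCNNGAA on either strand, which overlap each other in Chordc1. The Hsph1 window lies at chr5:149636287-149636586 on the minus strand and the Chordc1 window at chr9:18292017-18292316 on the plus strand.
Hsph1: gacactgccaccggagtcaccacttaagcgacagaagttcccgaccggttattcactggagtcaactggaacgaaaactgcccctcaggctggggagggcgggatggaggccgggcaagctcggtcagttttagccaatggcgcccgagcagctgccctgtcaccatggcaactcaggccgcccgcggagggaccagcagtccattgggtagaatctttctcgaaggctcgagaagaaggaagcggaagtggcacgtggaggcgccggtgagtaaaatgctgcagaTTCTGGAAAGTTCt
Chordc1: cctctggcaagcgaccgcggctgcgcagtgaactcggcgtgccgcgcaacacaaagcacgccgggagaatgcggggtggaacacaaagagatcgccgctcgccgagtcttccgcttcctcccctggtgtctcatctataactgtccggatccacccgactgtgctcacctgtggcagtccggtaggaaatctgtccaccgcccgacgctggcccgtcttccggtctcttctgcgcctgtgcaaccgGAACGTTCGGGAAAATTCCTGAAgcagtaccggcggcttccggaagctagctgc
Among the 19 heat shock genes with a window in the RefSeq table, 4 held this motif (Chordc1, Hspd1, Hspe1 and Hsph1), or 21.1%, against 0.57% of 10880 tested genes and 0.66% of all 27025 genes with a window. A match describes the letters of the window and says nothing of binding in these hearts, and the TAC and sham values of Hspd1, which holds a match too, overlapped. Hspd1 and Hspe1 are neighbours that share a promoter region. The windows of Hspa1b and Dnajb5, which also lay below sham in both TAC libraries, hold 0 matches.

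Among elastic fibre and collagen genes there was 1 call, and for several of them TAC replicate 2 stood above TAC replicate 1. Fbn1, which encodes fibrillin-1, the backbone of microfibrils, had 121 and 157 CPM in the TAC libraries, against 67.3 and 70.3 CPM in the sham libraries, or 139 ± 26.01 CPM in TAC and 68.8 ± 2.14 CPM in sham (SD, n = 2 each). The TAC libraries were well above both sham libraries, by 2.004-fold (log2 1.003 ± 0.13, limma, adjusted p = 0.00537, and 0.0781 without TAC replicate 2). It was the only call among 22 elastic microfibril genes, of which 8 lay above (36.4%, against 23.7% of all genes) and 2 below (9.09%, against 16.4%). The median of that list was 0.11, and 0.00 without TAC replicate 2. Mfap5, a microfibril-associated glycoprotein, had 34.4 and 52.6 CPM in TAC, against 22.7 and 22.6 CPM in sham (log2 0.91 ± 0.18, limma, adjusted p = 0.0552). Fbln2, which binds fibrillin, had 185 and 240.3 CPM in TAC, against 141 and 137 CPM in sham (log2 0.60 ± 0.12, limma, adjusted p = 0.069). The crosslinking enzyme genes Lox, Loxl1 and Loxl2 had log2 fold changes of 0.80 ± 0.29, 0.45 ± 0.13 and 0.74 ± 0.17.

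None of 22 collagen genes was called, with 6 above (27.3%, near the 23.7% of all genes), 2 below (9.09%, against 16.4%) and a median of 0.22. This median was -0.06 without TAC replicate 2 and 0.52 without TAC replicate 1. Col1a1, the main chain of type I collagen, had 143 and 243 CPM in TAC, against 161 and 156 CPM in sham, and Col3a1, of type III, had 199 and 363 CPM in TAC, against 186 and 165 CPM in sham. For Col1a1 TAC replicate 1 was below both sham libraries and TAC replicate 2 above both. The network-forming Col4a1 and Col4a2 of the basement membrane were separated, with 557 and 781 CPM in TAC, against 389.9 and 474 CPM in sham (log2 0.62 ± 0.14) and 537 and 676 CPM in TAC, against 361 and 438 CPM in sham (log2 0.60 ± 0.13, limma, adjusted p = 0.0774). Col8a1, a short-chain collagen of vessels and remodelling tissue, had 40.8 and 71.2 CPM in TAC, against 36.7 and 27.5 CPM in sham (log2 0.76 ± 0.22). Postn, a matricellular protein of activated fibroblasts, had 92.02 and 176 CPM in TAC, against 107 and 89.8 CPM in sham, where TAC replicate 2 was again the high library.

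Cilp, a matrix protein of cardiac fibroblasts, had 56.8 and 90.5 CPM in TAC, against 40.1 and 42.3 CPM in sham (log2 0.80 ± 0.22), and Fstl1, a secreted glycoprotein, had 104 and 169 CPM in TAC, against 87.2 and 77.2 CPM in sham (log2 0.69 ± 0.17). In the opposite direction, Thbs1, which activates latent TGF-beta, had 29.8 and 50.7 CPM in TAC, against 83.4 and 69.9 CPM in sham (log2 -0.97 ± 0.20, limma, adjusted p = 0.0643), and Ccn1, a target of YAP and an immediate early gene, had 50.6 and 42.04 CPM in TAC, against 67.4 and 91.5 CPM in sham (log2 -0.77 ± 0.16). The extracellular sulfatase gene Sulf2 had 156 and 169 CPM in TAC, against 116 and 89.5 CPM in sham (log2 0.67 ± 0.13, limma, adjusted p = 0.0534) and the proteoglycan gene Spock2 had 27.6 and 23.9 CPM in TAC, against 11.1 and 14.99 CPM in sham (log2 0.996 ± 0.18, limma, adjusted p = 0.0525). Both were separated between the groups. The pathway lists gave little: TGF-beta and BMP genes had a median of 0.05 over 28 members with 0 called, and fibroblast genes 0.05 over 22, which was -0.16 without TAC replicate 2 and 0.28 without TAC replicate 1.

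Small leucine-rich proteoglycans, which bind collagen fibrils and set their spacing, lay the other way. Of 12 tested, 0 were called, 0 lay above (against 23.7% of all genes) and 7 below (58.3%, against 16.4%). The median was -0.30 and stayed between -0.43 and -0.14 when a library was left out. Fmod, fibromodulin, had 32.8 and 48.3 CPM in TAC, against 76.3 and 67.3 CPM in sham (log2 -0.85 ± 0.19, limma, adjusted p = 0.106). Ogn, osteoglycin, had 158 and 167 CPM in TAC, against 219.7 and 208 CPM in sham (log2 -0.39 ± 0.11), and Prelp had 133 and 143 CPM in TAC, against 206 and 159 CPM in sham (log2 -0.39 ± 0.12). Dcn, decorin, had 700.2 and 780.1 CPM in TAC, against 991 and 799.7 CPM in sham (log2 -0.27 ± 0.13). Lumican (Lum) and biglycan (Bgn) overlapped, with 78.5 and 123 CPM in TAC and 91.1 and 74.7 CPM in sham and 442 and 641 CPM in TAC and 556 and 485 CPM in sham, and TAC replicate 2 was the highest of these libraries for both. Wif1 and Angptl7, secreted proteins outside this list, had 11.2 and 12.5 CPM in TAC and 25.9 and 20.3 CPM in sham and 13.8 and 19.4 CPM in TAC and 34.6 and 28.4 CPM in sham, both separated (limma, adjusted p = 0.0602 and 0.0685).

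**Figure D4:**
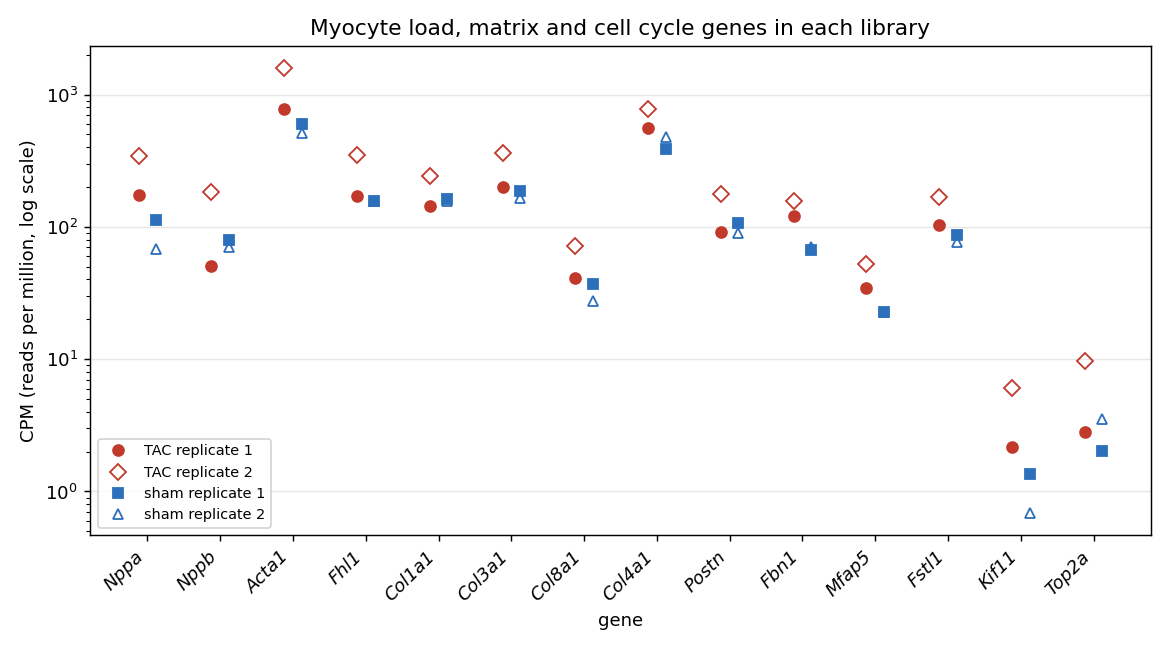
CPM on a log axis of 14 genes of muscle load, matrix and the cell cycle, with TAC replicates (red) left of sham replicates (blue) for each gene and 1 symbol per library. The genes were picked as ones whose TAC libraries differ, so their common order follows from the choice. TAC replicate 2 is the highest library for all 14 genes, and TAC replicate 1 lies at or below a sham library for Nppb, Col1a1, Postn and Top2a.

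Some genes of muscle load also differed between the TAC libraries. Of 19 stress and fetal genes, 0 were called, with 8 above (42.1%, against 23.7% of all genes) and 2 below (10.5%, against 16.4%). The median was 0.16, and 0.04 without TAC replicate 2. Nppb, which encodes a natriuretic peptide of the ventricle, had 50.8 and 184 CPM in TAC, against 79.5 and 70.9 CPM in sham, so that TAC replicate 1 was the lowest of the libraries and TAC replicate 2 the highest. Nppa, the gene for atrial natriuretic peptide, was separated between the groups, at 173 and 346 CPM in TAC and 113 and 68.2 CPM in sham (log2 1.48 ± 0.31, limma, adjusted p = 0.0703). Acta1, skeletal actin, was separated too, higher in both TAC libraries than in both sham libraries, and was not called. Fhl1, a LIM protein of stretched muscle, had 172 and 347 CPM in TAC, against 157 and 157 CPM in sham, and Ankrd1, a titin-binding stretch responder, had 1263 and 2654 CPM in TAC, against 2186 and 2098 CPM in sham. Log2 TAC replicate 2 minus TAC replicate 1 had a median of 0.32 over this list, 0.49 over collagens and 0.80 over 33 cell cycle genes, against 0.07 over all genes.

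The cell cycle list, which reports dividing cells of any type, had a median of 0.31, with 0 called. Of its 33 genes, 9 lay above (27.3%, near the 23.7% of all genes) and 1 below (3.03%, against 16.4%). Mki67, the Ki-67 antigen, had 4.81 and 28.05 CPM in TAC, against 6.88 and 7.64 CPM in sham, Top2a, topoisomerase II alpha, 2.82 and 9.64 CPM in TAC, against 2.02 and 3.503 CPM in sham, and the spindle motor gene Kif11 2.16 and 6.097 CPM in TAC, against 1.35 and 0.689 CPM in sham. All but Kif11 had a TAC replicate 1 value within or below the sham range. The list median was 0.08 with TAC replicate 2 left out and 0.59 with TAC replicate 1 left out.

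Within the muscle cell, the sarcomere as a whole stayed near the level of all genes, with a median of 0.03 over 23 members. Myh7b, a slow myosin heavy chain gene whose transcript is little translated, fell, with 64.3 and 77.7 CPM in TAC, against 113 and 113 CPM in sham (log2 -0.67 ± 0.12, limma, adjusted p = 0.0454). The sham values of Myh7b were equal to 3 digits, and without TAC replicate 1 the adjusted p was 0.172. Actc1, cardiac actin, had 15917 and 19864 CPM in TAC, against 13526 and 12564 CPM in sham (log2 0.45 ± 0.18), and Tnnc1, troponin C, had 2965 and 3379 CPM in TAC, against 2357 and 2637 CPM in sham (log2 0.34 ± 0.13). Lmod2, which lengthens thin filaments, had 1017 and 863 CPM in TAC, against 1198 and 1311 CPM in sham (log2 -0.42 ± 0.12). Myh7, the slow heavy chain that load brings up in rodents, had 920.3 and 978 CPM in TAC and 821 and 885 CPM in sham (log2 0.15 ± 0.13).

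Lrrc10, a cardiac leucine-rich repeat protein located at the Z disc, fell, with 183 and 149.9 CPM in TAC, against 249 and 282 CPM in sham (log2 -0.68 ± 0.12, limma, adjusted p = 0.0447, and 0.419 without TAC replicate 2). Fhl2, a LIM protein of the costamere, was separated between the groups, at 1962 and 2233 CPM in TAC and 1422 and 1319 CPM in sham (log2 0.61 ± 0.12, limma, adjusted p = 0.0552). Sgcd, delta-sarcoglycan, had 23.05 and 18.9 CPM in TAC, against 11.998 and 13.3 CPM in sham (log2 0.72 ± 0.21). Of 22 genes of the intercalated disc and costamere, 8 lay above (36.4%, against 23.7% of all genes) and 2 below (9.09%, against 16.4%). The median was 0.01.

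Calcium handling genes were split, with 1 called higher, 1 lower and a median of 0.00. Of 27, 7 lay above (25.9%, near the 23.7% of all genes) and 10 below (37%, against 16.4%). Slc8a1, the sodium-calcium exchanger that removes calcium from the myocyte after each beat, had 611 and 618 CPM in the TAC libraries, against 414 and 372 CPM in the sham libraries (log2 0.65 ± 0.11, limma, adjusted p = 0.0349). The TAC values were nearly equal and lay well above both sham values. Without sham replicate 2 the adjusted p was 0.184, and without TAC replicate 2 0.307. Camk2b, a calcium and calmodulin-dependent kinase isoform that is minor in heart muscle, had 9.01 and 8.13 CPM in the TAC libraries, against 17.4 and 19.9 CPM in the sham libraries (log2 -1.12 ± 0.19, limma, adjusted p = 0.0349). The call of Camk2b was lost in each fit without 1 library, with adjusted p up to 0.31.

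The sister isoforms were not called: Camk2a had 91.2 and 80.5 CPM in TAC, against 122 and 115 CPM in sham (log2 -0.47 ± 0.11) and Camk2d, the main cardiac isoform, 211 and 217 CPM in TAC, against 224 and 191 CPM in sham, with the groups overlapping. Ryr2, the calcium release channel, had 2625 and 2091 CPM in TAC, against 1706 and 1747 CPM in sham (log2 0.44 ± 0.15), and Casq2, calsequestrin, which stores calcium beside it, had 1529 and 1685 CPM in TAC, against 1218 and 1145 CPM in sham (log2 0.44 ± 0.11). Atp2a2, the calcium pump of the sarcoplasmic reticulum, had 17057 and 12901 CPM in TAC and 12926 and 14524 CPM in sham, and its inhibitor Pln 1545 and 1481 CPM in TAC and 1527 and 1567 CPM in sham. Both pairs of groups overlapped. Kcnk3, a background potassium channel, had 401 and 380.2 CPM in TAC, against 274 and 285 CPM in sham (log2 0.48 ± 0.10, limma, adjusted p = 0.0685), and 0 of 18 potassium channel genes were called.

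The endothelin system gave 1 call. Ednra, the receptor through which endothelin-1 contracts vessels and stimulates myocytes and fibroblasts, had 76.3 and 77.8 CPM in the TAC libraries, against 45.2 and 50.7 CPM in the sham libraries (log2 0.69 ± 0.12, limma, adjusted p = 0.0395). Its values were close within each group, but the call was lost in each fit without 1 library, with adjusted p of 0.331 without TAC replicate 2. The ligand genes Edn1 and Edn3 had 4.2002 and 5.69 CPM in TAC, against 1.48 and 2.07 CPM in sham and 3.21 and 5.98 CPM in TAC, against 1.21 and 1.67 CPM in sham (log2 1.46 ± 0.37 and 1.60 ± 0.46). Both were separated, and neither passed (limma, adjusted p = 0.172 and 0.235). Ednrb, the second receptor, had 23.2 and 20.1 CPM in TAC and 23.7 and 22.5 CPM in sham, and Ece1, which cleaves the precursor, had 149.9 and 168 CPM in TAC and 148 and 149 CPM in sham. Corin, a protease that cleaves the product of Nppa, had 326 and 301 CPM in TAC, against 255 and 271 CPM in sham (log2 0.25 ± 0.10), and Npr3, the clearance receptor of that peptide, had 31.3 and 37.1 CPM in TAC and 19.4 and 27.5 CPM in sham (log2 0.56 ± 0.17). The angiotensin receptor gene Agtr1a had 81.8 and 60.9 CPM in TAC and 79.3 and 66.2 CPM in sham. Over 18 genes of both hormone systems the median was 0.01.

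Metabolic genes gave 1 call. Bdh1, the mitochondrial enzyme that takes beta-hydroxybutyrate into oxidation, rose, with 263 and 339 CPM in the TAC libraries, against 172 and 145 CPM in the sham libraries, or 301 ± 53.6 CPM in TAC and 158 ± 18.9 CPM in sham (SD, n = 2 each). Both TAC libraries were at least 1.5 times as high as either sham library (log2 0.92 ± 0.13, limma, adjusted p = 0.00848). Without TAC replicate 2 the adjusted p was 0.128, and without sham replicate 2 0.0824. Of the next enzymes of ketone use, Oxct1 had 1701 and 1481 CPM in TAC and 1542 and 1704 CPM in sham, with overlapping groups, and Acat1 728 and 667 CPM in TAC and 846 and 846 CPM in sham (log2 -0.28 ± 0.10).

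Glycolysis genes had a median of 0.16 over 23 members, which stayed between 0.12 and 0.21 when a library was left out. Of these, 0 were called, 12 lay above (52.2%, against 23.7% of all genes) and 3 below (13%, against 16.4%). Pfkp, the platelet-type phosphofructokinase, had 80.6 and 111 CPM in TAC, against 70.2 and 63.5 CPM in sham (log2 0.50 ± 0.15), Hk1, hexokinase 1, had 405 and 464 CPM in TAC, against 384 and 286 CPM in sham (log2 0.39 ± 0.13) and Ldha, which makes lactate, had 581 and 595 CPM in TAC, against 432 and 529.5 CPM in sham (log2 0.30 ± 0.11). Slc2a1, the fetal glucose transporter, had 35.98 and 32.9 CPM in TAC, against 28.2 and 25.6 CPM in sham (log2 0.36 ± 0.15). Pfkm, the muscle phosphofructokinase, had 1258 and 1077 CPM in TAC and 1058 and 1288 CPM in sham, with overlapping groups. Pdk2, which switches off pyruvate dehydrogenase, had 935 and 765 CPM in TAC and 1058 and 1037 CPM in sham (log2 -0.31 ± 0.12). Pdk4, a related kinase that fasting induces, spread widely within sham, at 114 and 164 CPM in TAC and 70.7 and 327 CPM in sham. Phka1, the muscle phosphorylase kinase subunit that starts glycogen breakdown, had 84.3 and 83.5 CPM in TAC, against 57.2 and 53.8 CPM in sham (log2 0.60 ± 0.11, limma, adjusted p = 0.0552).

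Fatty acid oxidation genes had a median of -0.12 over 22 members, and 0.02 without sham replicate 2. Of these, 0 were called, 2 lay above (9.09%, against 23.7% of all genes) and 6 below (27.3%, against 16.4%). Hadh had 678 and 589 CPM in TAC, against 749 and 825 CPM in sham (log2 -0.32 ± 0.11), Cpt2 had 272 and 244 CPM in TAC, against 284 and 345 CPM in sham (log2 -0.28 ± 0.12) and Decr1 had 424 and 359.6 CPM in TAC, against 457 and 479.6 CPM in sham (log2 -0.26 ± 0.11). The fatty acid transporter gene Cd36 had 1766 and 1665 CPM in TAC and 1466 and 1712 CPM in sham. Acsf2, a mitochondrial acyl-CoA synthetase, had 38.4 and 36.6 CPM in TAC, against 55.4 and 56.8 CPM in sham (log2 -0.58 ± 0.12, limma, adjusted p = 0.076). The nuclear-encoded respiratory chain stayed near the level of all genes, with medians of -0.03 over 36 genes of complex I and -0.02 over 33 of complexes III to V, and 8 genes lay below and 1 above in each. Those 8 make 22.2% and 24.2% of their lists, against 16.4% of all genes, and without sham replicate 2 the medians were 0.07 and 0.08. The muscle isoforms of cytochrome oxidase subunits, Cox6a2 and Cox7a1, had 2433 and 2359 CPM in TAC and 3454 and 2916 CPM in sham and 382 and 363 CPM in TAC and 487 and 455 CPM in sham (log2 -0.41 ± 0.14 and -0.34 ± 0.12). Of 13 mitochondrially encoded genes looked up by symbol, 0 were among the deposited genes, so they could not be compared. Esrrb and Esrrg, orphan receptors of the family that drives mitochondrial genes, had 69.97 and 64.9 CPM in TAC, against 42.6 and 44.5 CPM in sham (log2 0.63 ± 0.12, limma, adjusted p = 0.0552) and 90.6 and 82.5 CPM in TAC, against 69.4 and 66.5 CPM in sham (log2 0.35 ± 0.12).

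Several called genes were the only call in their list or belonged to none. Sfpq, a splicing factor and a core protein of paraspeckles, the nuclear bodies built on the RNA Neat1, fell, with 88.8 and 85.8 CPM in the TAC libraries, against 151 and 124 CPM in the sham libraries (log2 -0.65 ± 0.12, limma, adjusted p = 0.0496, and 0.367 without TAC replicate 2). Its partner Nono had 93.1 and 101 CPM in TAC and 110.1 and 106 CPM in sham, and Neat1 had 287 and 395 CPM in TAC and 630.0 and 335 CPM in sham, with sham replicate 1 the highest. Of 14 paraspeckle and nuclear RNA genes 8 lay below (57.1%, against 16.4% of all genes) and 0 above (against 23.7%), with a median of -0.20. Of 38 splicing factors 14 lay below (36.8%) and 5 above (13.2%), with a median of -0.11. Without sham replicate 1 the paraspeckle median was -0.10, and without TAC replicate 1 the splicing median was -0.05. Prickle3, of the planar cell polarity pathway, fell, with 32.99 and 33.04 CPM in TAC, against 55.6 and 52.6 CPM in sham (log2 -0.71 ± 0.13, limma, adjusted p = 0.0454), and 0 of the other 19 genes of polarity and Wnt signalling were called. Tmem267 had 22.7 and 32.1 CPM in TAC, against 13.5 and 11.8 CPM in sham (log2 1.09 ± 0.20, limma, adjusted p = 0.0454, and 0.465 without TAC replicate 2). The pseudogene Gm12912 had 4 and 10 reads in the TAC libraries, against 145 and 51 reads in the sham libraries (log2 -3.79 ± 0.69, limma, adjusted p = 0.0496); its reads may come from a near-identical gene, and without sham replicate 1 the adjusted p was 0.307.

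Other genes near the threshold named single steps of signalling. Per2, a repressor of the circadian clock, had 41.9 and 37.5 CPM in TAC, against 68.4 and 69.5 CPM in sham (log2 -0.80 ± 0.15, limma, adjusted p = 0.0525), while 19 clock genes had a median of -0.03. Irs2, which carries the insulin signal and which fasting induces, had 21.3 and 10.9 CPM in TAC, against 27.9 and 53.7 CPM in sham (log2 -1.34 ± 0.29, limma, adjusted p = 0.082), and Irs1 had 20.7 and 18.1 CPM in TAC, against 13.95 and 11.7 CPM in sham (log2 0.60 ± 0.18). The directions of the pair were opposite, and sham replicate 2 was the highest library for Irs2. Otud1, a deubiquitinating enzyme, had 27.9 and 20.4 CPM in TAC, against 39.2 and 62.7 CPM in sham (log2 -1.05 ± 0.20, limma, adjusted p = 0.0552). Chd6, a chromatin remodeller, had 139 and 150.2 CPM in TAC, against 103 and 91.4 CPM in sham (log2 0.57 ± 0.11, limma, adjusted p = 0.0602). Fstl4 had 7.63 and 8.07 CPM in TAC, against 2.696 and 3.22 CPM in sham (log2 1.40 ± 0.27, limma, adjusted p = 0.0552). In all, 27 genes upwards and 26 downwards had an adjusted p between 0.05 and 0.10.

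**Figure D5:**
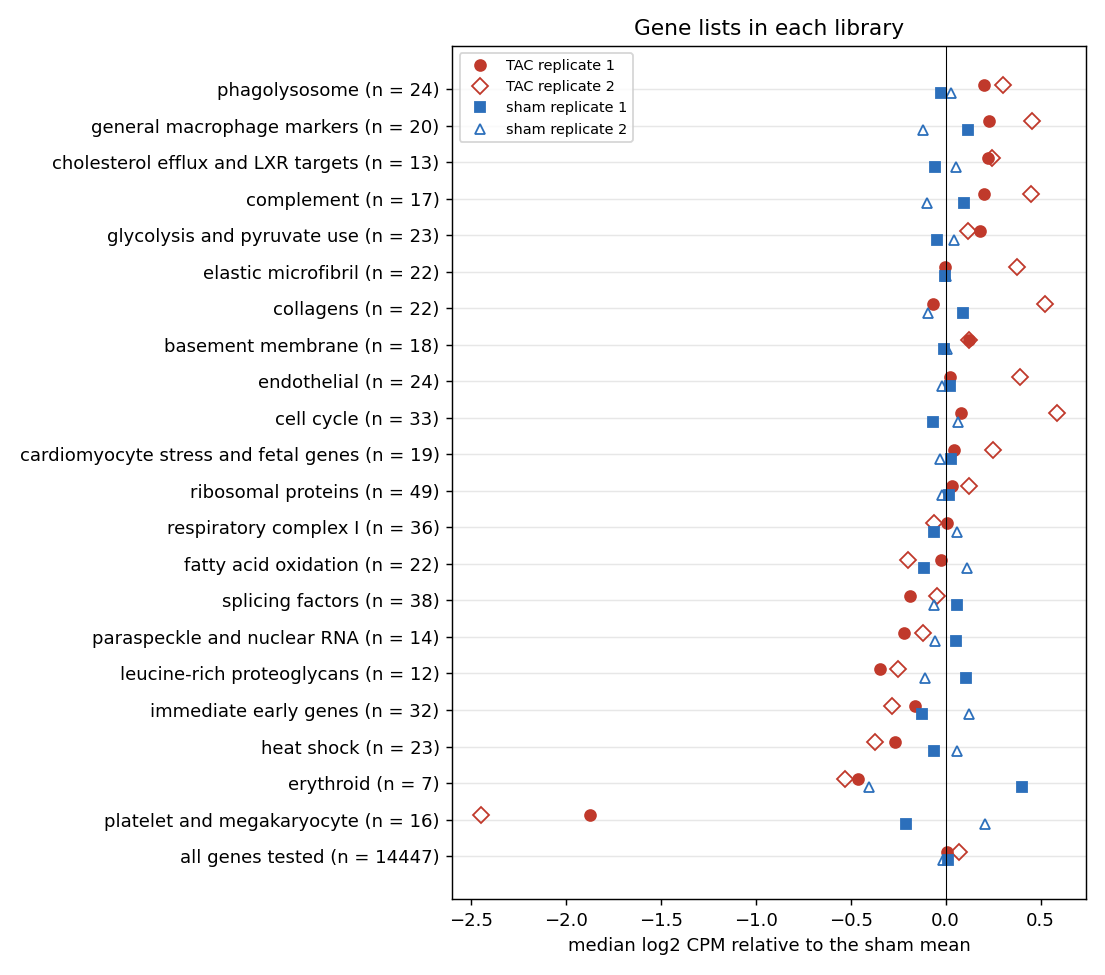
Median over the members of each gene list of log2 CPM relative to the mean of the sham libraries, with 1 symbol per library and TAC (red) drawn above sham (blue) in each row. Both TAC symbols lie to the right of both sham symbols for phagolysosome (list median 0.24) and general macrophage genes (0.35) and to the left for heat shock (-0.31) and platelet genes (-2.32), while collagen and cell cycle genes are set apart by TAC replicate 2.

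The lists differed in which libraries set them apart. In the phagolysosome, general macrophage, complement, cholesterol efflux and glycolysis lists both TAC libraries had medians above those of both sham libraries. In the heat shock, leucine-rich proteoglycan, platelet and immediate early lists both lay below. In the collagen list TAC replicate 1 lay within the sham range and in the cell cycle list it was close above it, with TAC replicate 2 far above. In the erythroid list sham replicate 1 stood alone. Autophagy (-0.02 over 23), ribosomal proteins (0.08 over 49) and branched chain amino acid breakdown (-0.06 over 17) stayed within 0.1 of 0, and none of their members was called. Genes that glucocorticoids or FoxO factors induce had a median of -0.05, and log2 sham replicate 2 minus sham replicate 1 had a median of 0.46 over this list. Of 67 lists, 37 kept the sign of their median in each fit without 1 library. Leaving out a knockdown library could not change a median, so only the fits without a TAC or sham library bear on this count.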

How the data were processed

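Per the labels, RNA of mouse hearts was extracted with TRIzol and made into libraries with a SMARTer mRNA-seq kit. The authors deposited 1 table of log2 values with 19320 genes and 6 columns; per the submitters' processing notes, limma and mm10 were used, without a version of limma. The aligner, counter, annotation and use of strand: not given in the sources used here. Reads of antisense or near-identical genes therefore cannot be told apart. From the values, the deposited log2 columns are log2 CPM, where 0.5 was added to each count and 1 to the total. Each group's columns were resolved as 60% and 40% mixtures, which gave whole counts (tolerance 0.05) for 99.9% of 115920 values and 0 negative ones, against 20.6 to 21.1% for 12 column pairs of different groups. No source used here records the mixing.

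All 6 libraries were fitted with 1 mean per group by limma 3.58.1 (intensity trend, R 4.3.3) on log2 CPM, which understates fold changes of low genes. Genes needed, in at least 2 libraries, the CPM of 10 reads in the median library, and 15 reads in all; this removed 4873 genes with 0.0583% of reads. The fit had 3 residual and 11.3 prior degrees of freedom. In simulated libraries of TAC against sham, with 14333 genes tested, it recovered 77% of 100 2-fold and 100% of 100 4-fold changes and called 11 of 14133 unchanged genes. The simulation gave every gene the same spread between libraries and planted changes only in genes above a minimum of reads. These shares therefore check the method and are not the power or error rate of the real comparison. Intervals of limma cover the spread between these libraries. The gene lists and the rule for naming genes (all called; up to 15 in each direction with adjusted p below 0.10; the first 2 and the up to 4 of smallest p in each list; the 5 in each direction of largest read difference) were chosen with earlier results of these data known. Genes named outside this rule, to fill in a pathway, were chosen after their values were seen. Alternatives were another scaling, filter, added count, weighting, variance prior, set of libraries, replicate block and each library left out.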

Additional observations from a re-analysis of the deposited data

How the results depend on the processing

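The counts of 12 higher and 11 lower genes moved with most settings. They were 12 and 17 with median ratio scaling, 11 and 14 with quantile normalization, 5 and 4 without the filter on low counts, 21 and 21 with 2 reads added, 7 and 9 with voom weights, 18 and 13 with robust variance and 10 and 10 from the TAC and sham libraries alone. Leaving out 1 library gave 1 to 27 higher and 3 to 24 lower. On the deposited columns, not resolved, limma called 5936 higher and 4318 lower; their scatter is no replicate spread. With the replicate number as a block the counts were 20 and 20, but the numbers are not known to pair the libraries: deviations of equal numbers in TAC and sham correlated at -0.22 over 5236 genes. A crossed pairing, chosen after seeing the data, gave 38 and 34. The 3428 genes with TAC above sham and the 2370 below became 2849 and 2874 with median ratio scaling and 2937 and 2817 with quantile normalization, without the filter 3874 and 3225, and with 2 reads added 3407 and 2385. Of the 23 called genes, 7 passed under all 8 of the other settings on resolved libraries, the fit of TAC and sham alone among them. With 2 libraries per group, 77% of 2-fold changes were recovered in a simulation with equal spread for all genes and without changes in the lowest genes. That share need not hold for these libraries, and a gene missing the threshold is not shown to be unchanged.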

Other observations

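Nppa belongs to a list of genes that the atria express more strongly than the ventricles. Of its 9 members tested, 0 were called, 5 lay above (55.6%, against 23.7% of all genes) and 2 below sham (22.2%, against 16.4%). The median was 0.35, which was 0.59 without TAC replicate 2 and 0.24 without sham replicate 2. Myl7, the atrial myosin light chain, had 49.7 and 35.9 CPM in TAC, against 35.7 and 24.1 CPM in sham (log2 0.53 ± 0.22), and Sln, the calcium pump inhibitor of the atrium, had 11.3 and 10.05 CPM in TAC, against 9.302 and 5.801 CPM in sham (log2 0.53 ± 0.27). Pam, which amidates peptide hormones in atrial granules, had 898 and 938 CPM in TAC, against 699 and 674 CPM in sham (log2 0.42 ± 0.11), and Tbx5, a transcription factor of the atria and left ventricle, had 54.2 and 49.01 CPM in TAC, against 43.3 and 37.7 CPM in sham (log2 0.35 ± 0.13). For Myl7 and Sln replicate 1 was the higher library in both groups, whereas for Nppa TAC replicate 2 was the highest. Dkk3, a secreted protein on the same list, lay the other way, at 32.4 and 36.7 CPM in TAC and 64.2 and 47.4 CPM in sham (log2 -0.68 ± 0.15, limma, adjusted p = 0.106). The part of atrial tissue in the Nppa values was not tested.

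Gm10925 and Gm10222 are annotated as unprocessed pseudogenes on chromosome 1. Gm10925 had 29069.8 and 30479.6 CPM in TAC and 52139 and 41616 CPM in sham and Gm10222 2943 and 2911 CPM in TAC and 4694 and 4003 CPM in sham (log2 -0.65 ± 0.23 and -0.57 ± 0.15), both below sham in both TAC libraries and neither called by limma (adjusted p = 0.348 and 0.174). The counts alone cannot assign these reads to the pseudogenes or to the copies they resemble.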
